A study of Drosophila melanogaster with 6 samples.

Results

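The proteasome subunit genes are described here in enteroendocrine cells (EEs), the hormone-secreting cells of the Drosophila midgut, with and without depletion of the transcription factor Prospero (Pros). Members were the genes of the count table whose symbol starts with Prosalpha, Prosbeta, or Rpn or Rpt followed by a digit, which gave 47 of 17558 genes. Of these, 32 encode the canonical subunits and 15 are variant paralogs, many of them copies used in the male germline. EEs were sorted as GFP-positive, propidium iodide-negative cells from pooled guts of adult female flies 5 to 7 days old kept at 29 °C for 7 days, about 20000 cells a sample. The pros-depleted flies (3 samples) carried prosV1-Gal4ts, UAS-GFP and UAS-pros-RNAi, and the control flies (3 samples) carried prosV1-Gal4ts and UAS-GFP. The same pros driver therefore marked the sorted cells and drove the RNAi, and GFP was expressed in both groups. The labels write the driver of pros-depleted samples 2 and 3 as Gal5ts and Gal6ts, and do not say which RNAi line was used.

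The proteasome is the protease that destroys proteins tagged with ubiquitin. Its barrel-shaped 20S core is a stack of alpha and beta rings, in which the alpha subunits gate the entrance and some of the beta subunits cut proteins inside. The 19S cap has a base, whose ring of ATPases (Rpt proteins) unfolds substrates and pushes them into the core, and a lid that removes their ubiquitin, while other Rpn proteins hold the cap together or bind ubiquitin chains. Each core and cap needs its subunits in fixed proportions, and the genes are used in nearly every cell.

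The libraries held 30148395, 28801665 and 27183747 counts on genes in pros-depleted EEs, against 40766059, 29602875 and 36100275 in control EEs, and levels are given as CPM, counts brought to a common library size after TMM scaling. The pros gene had 162, 138 and 162 CPM in pros-depleted EEs, against 500, 548 and 836 CPM in control EEs, a log2 fold change of -2.03 (SE 0.237, edgeR adjusted p = 0.000763). Of 13 EE markers, 12 were called lower in pros-depleted EEs, and the list summed to 7640 to 11938 CPM there, against 98605 to 108266 CPM in control EEs. Enterocyte markers summed to 4715 to 10647 CPM in pros-depleted EEs and 737 to 2103 CPM in control EEs (5 of 8 called higher, none at 0), and progenitor markers to 412 to 630 CPM in pros-depleted EEs and 173 to 254 CPM in control EEs (2 of 5 called higher, none at 0). The part of these markers in the proteasome values was not tested. The labels do not say that a shared number ties samples of the groups, and the samples are called independent replicates in the study's methods.

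None of the 34 members that could be tested was called higher or lower in pros-depleted EEs. A gene was called when the quasi-likelihood test of edgeR gave an adjusted p under 0.01 (Benjamini-Hochberg, over all 10374 genes tested) and its log2 fold change was beyond 0.5 in either direction. In the same test 12.7% of all genes were called, 4.73% as higher and 7.96% as lower. The tested members were the 32 canonical subunits and the variants Rpt3R and Rpn13R. DESeq2 also called 0 of the 34, where it called 976 of 10374 genes higher and 1267 lower. At an unadjusted p under 0.05, edgeR gave 4 members (Prosbeta3, Rpn12, Rpt2 and Rpt3R), against 38.7% of all genes. DESeq2 gave 3, against 38.5%. The edgeR count of 4 became 6 without pros-depleted sample 3 and 0 without control sample 1, beside 34.6% and 33.7% of all genes. It was 1 without pros-depleted sample 1, pros-depleted sample 2 or control sample 3, beside 33.5%, 38.7% and 34.2%. Without control sample 2 it was 2, beside 29.8%. With RLE, upper-quartile and unscaled library sizes it was 3, 2 and 1, beside 38.6%, 39.5% and 39.9%.

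Most canonical subunits had a log2 fold change below 0, by amounts too small to be called. Their median log2 fold change was -0.16, or 0.893-fold, against a median of 0.02 over all genes tested. Of the 32, 29 had a value below 0, beside 48.6% of all genes, and with library sizes left unscaled this became 21 of 32 beside 41.3%. Leaving out the scaling moved the median of all genes to 0.14 and that of the subunits to -0.04. Scaling shifts all genes by nearly the same amount, so the distance between the medians, -0.18 either way, could hardly change. This distance was -0.27 with no filter, and ran from -0.30 to -0.09 with a sample left out. The subunits' median was -0.28 without pros-depleted sample 3, -0.09 without pros-depleted sample 1, -0.11 without pros-depleted sample 2 and -0.10 without control sample 1. Fewer cells of a type and less RNA per cell cannot be told apart in these bulk samples.

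The spread of the canonical subunits around their median was narrow. Their log2 fold changes ran from -0.54 to 0.11, with quartiles of -0.23 and -0.10, where the quartiles of all genes were -0.45 and 0.50. Standard errors had a median of 0.194, against 0.255 over all genes. The 95% interval of the difference stayed within 1 on the log2 scale on both sides for 32 of 32 subunits, beside 42.7% of all genes, and within 0.5 for 5 of 32, beside 5.11% of all genes. At their widest these intervals allowed 0.504-fold at the low end and 1.49-fold at the high end. The interval held 0 for 29 subunits, all but Prosbeta3, Rpn12 and Rpt2. In CPM per kb the lowest of the 32 stood above 66.2% of all genes in control EEs, and spreads were not compared among genes of like level.

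**Figure D1:**
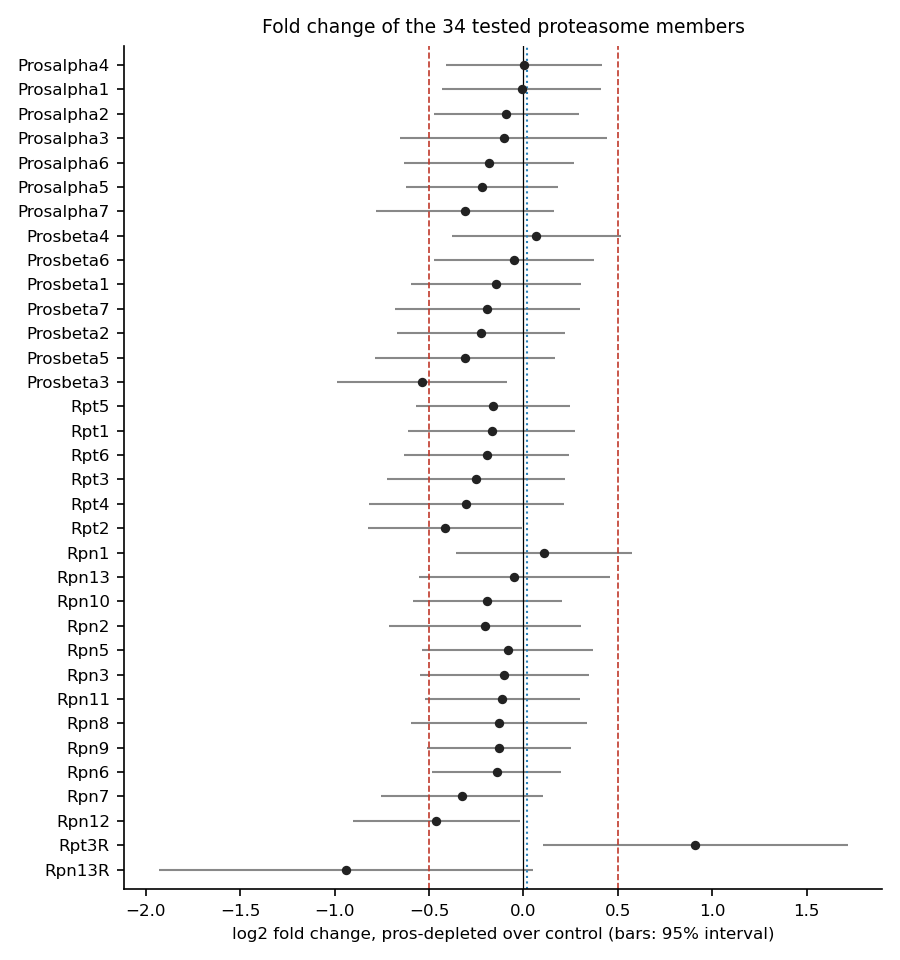
The log2 fold change (pros-depleted over control EEs) of each of the 34 tested members is a point with its 95% interval from edgeR, ordered by role, with the 2 variant paralogs at the bottom. Dashed lines mark 0.5 on either side, the dotted line marks the all-gene median of 0.02, and the canonical points fall between -0.54 and 0.11.

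In no canonical subunit did every pros-depleted sample lie above every control sample, an arrangement found in 20.4% of all genes. The opposite arrangement, with the highest pros-depleted sample below the lowest control sample, held for 4 of 32 (Prosbeta3, Rpn12, Rpt2 and Rpn6), beside 22.5% of all genes. For the other 28 the groups overlapped.

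The subunit genes were among the well-expressed genes of EEs in both groups. Per kb of exon, the canonical subunits had a median of 81.7 CPM per kb in pros-depleted EEs and 89.99 CPM per kb in control EEs, where the medians of all genes tested were 5.28 and 5.43 CPM per kb. Their levels were unequal. They covered 13.4 to 184 CPM per kb in pros-depleted EEs, a 13.8-fold range, and 12.4 to 219 CPM per kb in control EEs, a 17.7-fold range. The lowest level per kb belonged to Rpn1 in both groups, and the highest to Prosbeta4 in pros-depleted EEs and Prosalpha7 in control EEs. Neither of these highest levels differed beyond the spread from that of Prosbeta5, at 176 ± 35.2 CPM per kb in pros-depleted EEs and 218 ± 28.0 CPM per kb in control EEs (SD, n = 3 each). By mean CPM over all samples the canonical subunits ranked between 588 and 3658 of the 10374 genes. The RNA was amplified before sequencing, and whether reads covered exons evenly was not tested, so levels per kb are approximate between genes. Exons of 13 canonical subunit genes overlap a gene on the other strand, by up to 182 bp for any single gene (Rpt6 and CG1801), and the strand setting of the counting is not given in the sources used here.

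By role, median levels were higher in the core than in the cap, although single genes overlapped, with Rpn10, Rpn11, Rpn6 and Rpt1 above Prosalpha1 and Prosalpha3 in control EEs. The difference between roles was not tested. The median level was 96.9 CPM per kb for the alpha ring and 125 CPM per kb for the beta ring in pros-depleted EEs, against 103 and 130 CPM per kb in control EEs. The base ATPases had 52.9 CPM per kb in pros-depleted EEs and 59.8 CPM per kb in control EEs, and the lid had 50.03 CPM per kb in pros-depleted EEs and 56.4 CPM per kb in control EEs. The other base subunits were lowest, with 33.8 CPM per kb in pros-depleted EEs and 36.4 CPM per kb in control EEs. The order of the 32 levels was much the same in the groups. The correlation of the log2 levels in pros-depleted and control EEs was 0.989 (Pearson's r) and 0.973 (Spearman's rho), described across 32 genes that share the same 6 libraries and the same lengths.

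**Figure D2:**
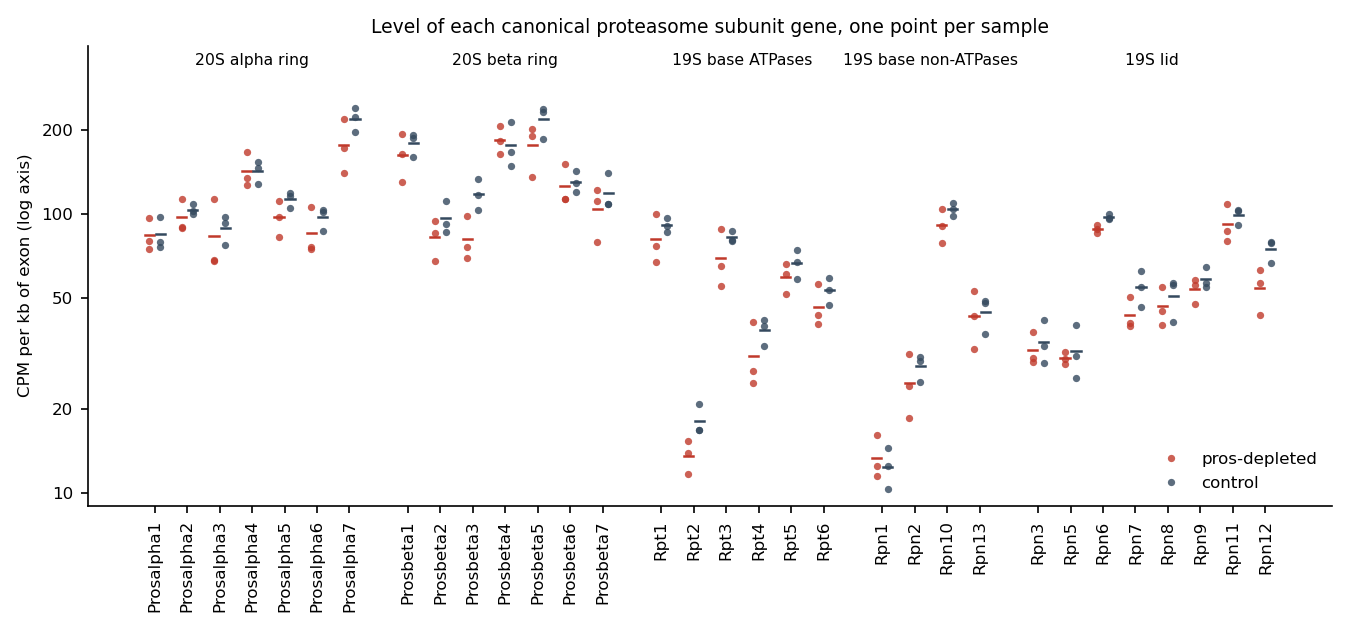
Each point is the level of a canonical subunit gene in a single sample, in CPM per kb of exon on a log axis, with pros-depleted samples to the left of control samples and short bars at the group means. Levels spread from 12.4 to 219 CPM per kb in control means, and most genes show overlapping groups.

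The alpha ring forms the outer rings of the core, and the tails of its subunits close the channel until a cap docks. None of its 7 genes was called, and 6 had a log2 fold change below 0 (median -0.10, range -0.31 to 0.00, edgeR adjusted p from 0.303 to 0.995). The count below 0 became 5 with RLE or upper-quartile scaling and 3 with unscaled library sizes (unscaled median 0.03). The median was -0.02 without pros-depleted sample 1 or 2, when 4 of 7 lay below 0, -0.32 without pros-depleted sample 3, -0.21 without control sample 2 and -0.07 without control sample 3. Prosalpha7 (2R, 9846636 to 9847836, minus strand) was the highest of the ring in control EEs. It had 136, 168 and 213 CPM in pros-depleted EEs, against 234, 216 and 192 CPM in control EEs. Pros-depleted sample 3 lay within the control range and the other 2 pros-depleted samples lay below it. Its log2 fold change was -0.31 (SE 0.206, edgeR adjusted p = 0.303).

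Prosalpha5 (2R, 17412767 to 17413769, plus strand) had 78.1, 91.5 and 105 CPM in pros-depleted EEs, against 112, 99.1 and 109 CPM in control EEs, a log2 fold change of -0.22 (SE 0.174, edgeR adjusted p = 0.389). Prosalpha6 (2L, 10221351 to 10222546, plus strand) had 81.5, 79.6 and 113 CPM in pros-depleted EEs, against 110, 92.8 and 109 CPM in control EEs, a log2 fold change of -0.18 (SE 0.195, edgeR adjusted p = 0.529). In both genes pros-depleted sample 3 reached into the control values, and for Prosalpha6 it exceeded them. Prosalpha2, Prosalpha3 and Prosalpha4 had log2 fold changes of -0.09, -0.10 and 0.00. Prosalpha3 had the widest standard error of all canonical subunits (0.238), with 66.3 and 65.8 CPM in pros-depleted samples 1 and 2 and 110 CPM in sample 3, against 74.9 to 94.7 CPM in control EEs.

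Prosalpha1 (2R, 7827303 to 7828678, minus strand), the lowest alpha subunit in control EEs, cannot be read on its own. It had 2309, 2106 and 2857 counts in pros-depleted EEs and 3748, 2065 and 2670 counts in control EEs, and in each sample the neighbouring gene CG30382, which starts 1734 bp further on and which RefSeq names Prosalpha1R, had the same number to within 2 counts. How reads that fit several positions were counted is not given in the sources used here, so the level of each of the pair is uncertain. As counted, Prosalpha1 had 72.3, 77.1 and 93.7 CPM in pros-depleted EEs, against 94.3, 73.7 and 76.8 CPM in control EEs, with overlapping groups and a log2 fold change of -0.01 (SE 0.184, edgeR adjusted p = 0.974).

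The beta ring holds the catalytic sites, which belong to Prosbeta1 (caspase-like), Prosbeta2 (trypsin-like) and Prosbeta5 (chymotrypsin-like). None of its 7 genes was called, and 6 had a log2 fold change below 0 (median -0.19, range -0.54 to 0.07). The count below 0 became 5 with upper-quartile scaling or unscaled library sizes (unscaled median -0.08). The median was -0.02 without pros-depleted sample 1, when 4 of 7 lay below 0, and -0.09 without control sample 1. The largest difference among the canonical subunits was in Prosbeta3 (3R, 9005313 to 9006226, minus strand), a non-catalytic subunit. It had 63.4, 69.5 and 89.4 CPM in pros-depleted EEs, against 122, 107 and 94.4 CPM in control EEs. All pros-depleted samples lay below all control samples, pros-depleted sample 3 only just so. Its log2 fold change was -0.54 (SE 0.195, edgeR adjusted p = 0.0781), or 0.689-fold with a 95% interval of -0.99 to -0.09 on the log2 scale, and it did not pass the threshold.

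Of the catalytic subunits, Prosbeta5 (2R, 10819978 to 10821178, plus strand), the highest beta subunit in control EEs, had 154, 229 and 217 CPM in pros-depleted EEs, against 270, 263 and 211 CPM in control EEs. Pros-depleted sample 1 stood below all others and the remaining samples overlapped. This was a log2 fold change of -0.31 (SE 0.207, edgeR adjusted p = 0.305). Prosbeta2 (3L, 14999951 to 15001319, plus strand), the lowest beta subunit in control EEs, had 69.8, 88.2 and 97.1 CPM in pros-depleted EEs, against 114.5, 94.8 and 88.8 CPM in control EEs, a log2 fold change of -0.23 (SE 0.193, edgeR adjusted p = 0.424). Prosbeta1 (2R, 16013805 to 16014787, minus strand) had 110, 139 and 164 CPM in pros-depleted EEs, against 163, 136 and 158 CPM in control EEs, a log2 fold change of -0.15 (SE 0.195, edgeR adjusted p = 0.622) that became 0.00 without pros-depleted sample 1. In both genes the lowest value was again that of pros-depleted sample 1, and pros-depleted sample 3 was above at least 1 control sample.

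Prosbeta7 (3R, 5357012 to 5358364, minus strand), a structural subunit, had 96.3, 148 and 135 CPM in pros-depleted EEs, against 170, 132 and 131 CPM in control EEs. Pros-depleted sample 1 was lowest, control sample 1 was highest, and the other 4 samples lay between 131 and 148 CPM. This gave a log2 fold change of -0.19 (SE 0.214, edgeR adjusted p = 0.550). Prosbeta6 and Prosbeta4, also without a catalytic site, had log2 fold changes of -0.05 and 0.07. Prosbeta4 was the beta subunit with a value above 0, at 184 ± 21.4 CPM per kb in pros-depleted EEs and 176 ± 33.1 CPM per kb in control EEs (SD, n = 3 each).

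The base of the cap carries a ring of 6 different ATPases, Rpt1 to Rpt6, and tails of some of them fit into the alpha ring and open its gate. None of the 6 genes was called, and 6 of 6 had a log2 fold change below 0 under each scaling tried. With TMM scaling the median was -0.22 (range -0.42 to -0.16), and with unscaled library sizes it was -0.09. The median was -0.39 without pros-depleted sample 3 and -0.14 without pros-depleted sample 1. The largest difference was in Rpt2 (3R, 23929873 to 23931558, minus strand), which was also the lowest of the ring. Rpt2 had 22.5, 18.97 and 24.8 CPM in pros-depleted EEs, against 33.7, 27.3 and 27.3 CPM in control EEs. All pros-depleted samples lay below all control samples, and the log2 fold change was -0.42 (SE 0.177, edgeR adjusted p = 0.123). Rpt2 exons overlap those of CG31142 on the other strand by 116 bp.

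Rpt2 was the lowest of the ring per kb in both groups. It had 13.6 ± 1.81 CPM per kb in pros-depleted EEs and 18.1 ± 2.29 CPM per kb in control EEs, while Rpt1 (2R, 7652440 to 7653954, minus strand), the highest of the 6, had 81.0 ± 16.9 CPM per kb in pros-depleted EEs and 91.0 ± 5.34 CPM per kb in control EEs (SD, n = 3 each). Rpt1 had 116, 101 and 151 CPM in pros-depleted EEs, against 137, 130 and 146 CPM in control EEs, a log2 fold change of -0.17 (SE 0.192, edgeR adjusted p = 0.559). The pros-depleted samples of Rpt1 lay on both sides of the control range. The nearest to Rpt2 was Rpt4, at 31.0 ± 8.79 CPM per kb in pros-depleted EEs and 38.2 ± 4.07 CPM per kb in control EEs (SD, n = 3 each).

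Rpt3 (X, 11125101 to 11126785, plus strand) had 101, 85.3 and 136 CPM in pros-depleted EEs, against 124, 125 and 135 CPM in control EEs, a log2 fold change of -0.25 (SE 0.204, edgeR adjusted p = 0.402). Rpt4 (X, 6289470 to 6291245, minus strand) had 36.1, 39.9 and 60.1 CPM in pros-depleted EEs, against 57.9, 49.3 and 60.7 CPM in control EEs, a log2 fold change of -0.30 (SE 0.225, edgeR adjusted p = 0.358). For both, pros-depleted samples 1 and 2 lay below every control sample and pros-depleted sample 3 did not. Rpt6 (X, 21316052 to 21317663, plus strand) had the same arrangement, with 60.6, 56.4 and 78.5 CPM in pros-depleted EEs, against 82.8, 66.1 and 74.96 CPM in control EEs, and a log2 fold change of -0.20 (SE 0.190, edgeR adjusted p = 0.486). Rpt5 (3R, 23752876 to 23754623, plus strand) had 83.9, 107 and 99.1 CPM in pros-depleted EEs, against 120, 109 and 95.04 CPM in control EEs, where only pros-depleted sample 1 lay outside the control range, and a log2 fold change of -0.16 (SE 0.177, edgeR adjusted p = 0.545).

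The base also holds the scaffolds Rpn1 and Rpn2 and the ubiquitin receptors Rpn10 and Rpn13. None of the 4 genes was called, and 3 had a log2 fold change below 0, or 2 with upper-quartile scaling or unscaled library sizes (median -0.12, or 0.01 with unscaled library sizes). With a sample left out this median changed direction, to 0.05 without pros-depleted sample 2, and was -0.25 without pros-depleted sample 3, -0.06 without pros-depleted sample 1, -0.07 without control sample 1 or 3 and -0.19 without control sample 2. Rpn10 (3L, 21537000 to 21538582, plus strand), the highest of the 4, had 111, 129 and 148 CPM in pros-depleted EEs, against 155, 148 and 140 CPM in control EEs. Pros-depleted sample 3 reached the control values, and the other 2 pros-depleted samples stayed below them. The resulting log2 fold change was -0.19 (SE 0.171, edgeR adjusted p = 0.445). Rpn2 (3R, 29153524 to 29157255, plus strand) had 82.4, 63.3 and 107 CPM in pros-depleted EEs, against 101, 84.8 and 105 CPM in control EEs, a log2 fold change of -0.20 (SE 0.221, edgeR adjusted p = 0.538).

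Rpn1 (3L, 19915051 to 19918160, plus strand), which docks the shuttle factors that bring ubiquitinated proteins, had the lowest level per kb of the canonical subunits in control EEs and, with all 6 samples, the highest fold change. It had 37.8, 34.9 and 49.1 CPM in pros-depleted EEs, against 43.9, 31.3 and 38.0 CPM in control EEs, with overlapping groups. Its log2 fold change was 0.11 (SE 0.202, edgeR adjusted p = 0.734), and without pros-depleted sample 3 or control sample 2 it lay below 0, as did 32 of 32 canonical subunits. In pros-depleted EEs its level per kb did not differ beyond the spread from that of Rpt2, and its mean CPM was above that of Rpt2 in both groups. Per kb it had 13.4 ± 2.46 CPM in pros-depleted EEs and 12.4 ± 2.07 CPM in control EEs, while Rpn10 had 90.9 ± 12.7 CPM in pros-depleted EEs and 104 ± 5.38 CPM in control EEs (SD, n = 3 each). Rpn13, which also anchors the deubiquitinase Uch-L5, had a log2 fold change of -0.05 (SE 0.219, edgeR adjusted p = 0.894).

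The lid surrounds the deubiquitinase Rpn11, paired with the related but inactive Rpn8, with an arch of PCI-domain scaffold subunits. None of the 8 lid genes among the members was called, and 8 of 8 had a log2 fold change below 0 (median -0.13, range -0.46 to -0.08). The count below 0 became 5 with unscaled library sizes (unscaled median -0.01). The median was -0.22 without pros-depleted sample 3, -0.08 without pros-depleted sample 1, -0.20 without control sample 2 and -0.06 without control sample 1, when 6 of 8 lay below 0. Rpn12 (3L, 16583028 to 16584022, plus strand), known in yeast as the last subunit to join the lid, had the largest difference. It had 56.2, 43.0 and 62.5 CPM in pros-depleted EEs, against 78.7, 66.1 and 77.9 CPM in control EEs. All pros-depleted samples lay below all control samples, with a log2 fold change of -0.46 (SE 0.192, edgeR adjusted p = 0.116).

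Rpn7 (3R, 22460662 to 22462054, minus strand) had 56.4, 55.1 and 69.8 CPM in pros-depleted EEs, against 86.5, 64.5 and 76.1 CPM in control EEs. Pros-depleted sample 3 lay above control sample 2, and the log2 fold change was -0.33 (SE 0.186, edgeR adjusted p = 0.236). Rpn6 (2R, 14750166 to 14752910, minus strand), which clamps the lid to the core in yeast, had the steadiest CPM within each group among the canonical subunits. It had 166, 177 and 171 CPM in pros-depleted EEs, against 185, 188 and 194 CPM in control EEs, so the groups did not overlap although the log2 fold change was only -0.14 (SE 0.149, edgeR adjusted p = 0.520). Rpn9 (3R, 23731375 to 23733462, minus strand) had 79.5, 93.4 and 96.7 CPM in pros-depleted EEs, against 108, 95.005 and 91.7 CPM in control EEs, with overlapping groups and a log2 fold change of -0.13 (SE 0.166, edgeR adjusted p = 0.607).

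Rpn11 (2L, 5058404 to 5059790, minus strand) was the highest lid gene in control EEs. It had 96.1, 105 and 130 CPM in pros-depleted EEs, against 124, 124 and 110 CPM in control EEs, with overlapping groups and a log2 fold change of -0.11 (SE 0.178, edgeR adjusted p = 0.680). Per kb its control level of 98.8 ± 6.60 CPM did not differ beyond the spread from that of Rpn6, 97.2 ± 2.17 CPM (SD, n = 3 each). The lowest lid gene was Rpn5 (3R, 5789493 to 5791569, plus strand), with 57.4, 60.5 and 54.7 CPM in pros-depleted EEs, against 75.6, 58.5 and 48.7 CPM in control EEs. Here the pros-depleted samples lay inside the control range, and the log2 fold change was -0.08 (SE 0.197, edgeR adjusted p = 0.789). Rpn3 and Rpn8 had log2 fold changes of -0.10 and -0.13.

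Within each group, the lowest and highest samples lay further apart than the means of the groups. A range of single samples and a distance between means are unlike measures, so this is a description and not a test. Relative to the mean of each gene over the 6 samples, the median deviation of the canonical subunits was -0.20, -0.17 and 0.18 on the log2 scale in pros-depleted EEs, against 0.21, -0.01 and 0.11 in control EEs. The subunits were thus low in pros-depleted samples 1 and 2 and high in pros-depleted sample 3 and control sample 1. The distance from the lowest to the highest sample was 0.374 within pros-depleted EEs and 0.222 within control EEs, while the means of the groups were -0.06 and 0.10. Over all genes tested, with 1 added to each CPM before the log, the median stayed between -0.02 and 0.00 in the 6 samples. TMM scaling itself keeps this all-gene median near 0, so it is no contrast to the subunits.

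The order of samples is taken from these same subunits, so counts of subunits by sample describe it and do not test it. The shares of all genes with their lowest or highest CPM in each sample are not given here. The lowest CPM of the 6 samples was in pros-depleted sample 1 for 15 of the 32 subunits and in pros-depleted sample 2 for 13. The highest was in control sample 1 for 18 subunits and in pros-depleted sample 3 for 12. Pros-depleted sample 2 had its deepest values in cap genes (Rpn12, Rpn2, Rpt3 and Rpt2) and sample 1 in core genes (Prosbeta5, Prosbeta3, Prosalpha7 and Prosbeta7) and Rpt4. Coefficients of variation had a median of 16.9% in pros-depleted EEs and 11.1% in control EEs for the canonical subunits, against 21.5% and 18.0% for all genes.

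**Figure D3:**
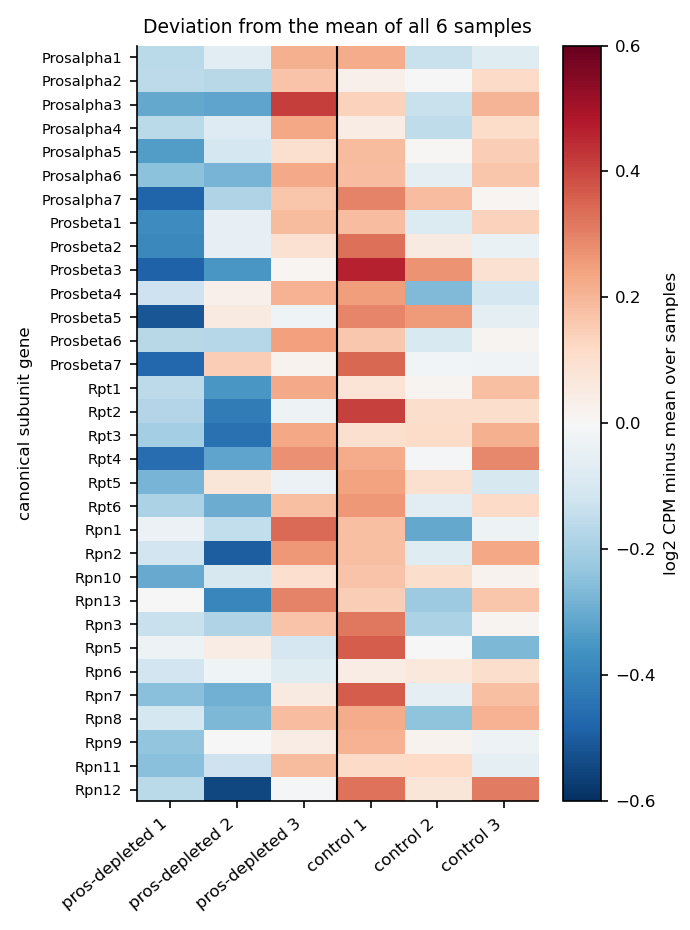
Each square is the log2 CPM of a canonical subunit gene (down the page, by role) in a sample (across, pros-depleted left of control) minus its mean over the 6 samples, with blue below and red above the mean. Pros-depleted samples 1 and 2 are mostly blue, pros-depleted sample 3 and control sample 1 are mostly red.

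As a share of all counts, the canonical subunits took 0.292%, 0.283% and 0.407% in pros-depleted EEs, against 0.371%, 0.313% and 0.332% in control EEs. The means were 0.327% ± 0.0688 in pros-depleted EEs and 0.339% ± 0.0295 in control EEs (SD, n = 3 each), a difference smaller than the spread. Counting error was much smaller than that spread, with exact 95% binomial intervals of 0.290% to 0.294% for pros-depleted sample 1 and 0.404% to 0.409% for pros-depleted sample 3. Mitochondrially encoded genes took 17.6%, 27.6% and 13.6% of counts in pros-depleted EEs, against 17.3%, 12.5% and 11.3% in control EEs. With these genes left out of the total, the subunits took 0.406% ± 0.0591 in pros-depleted EEs and 0.394% ± 0.0485 in control EEs (SD, n = 3 each), so the order of the means turned round.

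Summed by role, the alpha ring had 666, 721 and 934 CPM in pros-depleted EEs, against 906, 798 and 859 CPM in control EEs. The beta ring had 734, 928 and 1012 CPM in pros-depleted EEs, against 1146, 965 and 941 CPM in control EEs. For the ATPases the sums were 419.8, 409 and 549.95 CPM in pros-depleted EEs, against 555, 507 and 539 CPM in control EEs. In each role pros-depleted sample 3 was the highest pros-depleted sample and lay within or above the control range. The non-ATPase base subunits summed to 304, 282 and 392.1 CPM in pros-depleted EEs, against 379.7, 326 and 363 CPM in control EEs, and the lid to 636, 648 and 738 CPM in pros-depleted EEs, against 820.2, 712 and 745 CPM in control EEs.

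**Figure D4:**
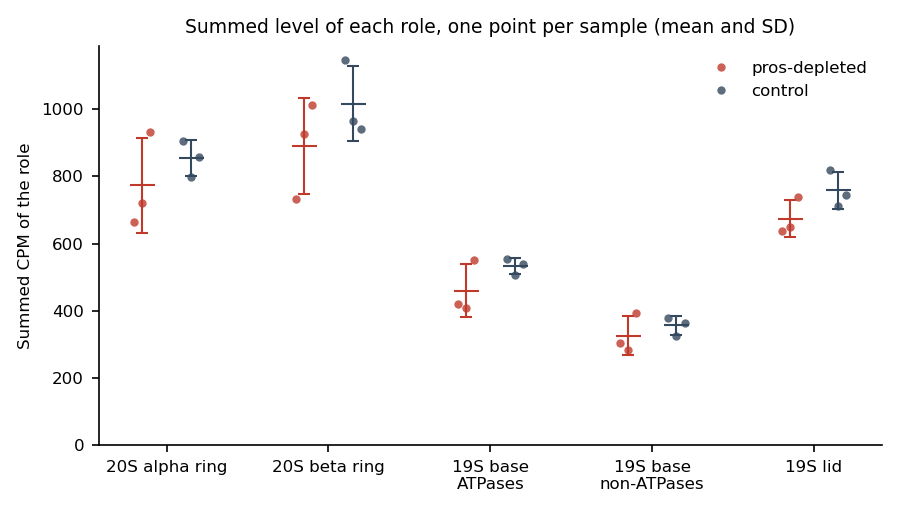
Summed CPM of the genes of each role, with a point per sample, pros-depleted left of control, and a bar and whiskers for the mean and SD of 3 samples. In every role the highest pros-depleted point is sample 3, which reaches the control points.

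Of the 15 variant paralogs, 4 (Prosbeta4R1, Prosalpha6T, Prosalpha4T2 and Rpn12R) had no count in any sample. Over the 3 pros-depleted and 3 control libraries, a count of 0 allows a level of up to 0.0755 to 0.110 CPM in a sample, taking 3 counts as the limit, for counting error only. Another 9 stayed under the filter of 10 counts in 3 samples. The 15 together took 103, 65 and 110 counts in pros-depleted EEs, against 112, 76 and 108 counts in control EEs, beside 81589 to 110535 counts on the canonical subunits in pros-depleted EEs and 92719 to 151289 in control EEs. The testis markers, which would accompany male germline RNA, summed to 0.952 to 1.94 CPM in pros-depleted EEs and 0.690 to 1.43 CPM in control EEs, with 1 of 6 at 0 throughout.

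Rpt3R (3R, 9754735 to 9756510, minus strand), a copy of the ATPase gene Rpt3, had 45, 39 and 57 counts in pros-depleted EEs, against 36, 27 and 22 counts in control EEs. In CPM this was 1.41, 1.43 and 1.87 in pros-depleted EEs, against 0.906, 0.964 and 0.633 in control EEs, with all pros-depleted samples above all control samples. The log2 fold change of 0.91 (SE 0.350, edgeR adjusted p = 0.0930) did not pass the threshold. Rpn13R (X, 5131898 to 5132985, plus strand), a copy of the ubiquitin receptor gene Rpn13, lay the other way. It had 29, 11 and 29 counts in pros-depleted EEs, against 62, 30 and 60 counts in control EEs, or 0.908, 0.403 and 0.951 CPM against 1.56, 1.07 and 1.73 CPM. All pros-depleted samples lay below all control samples in CPM, and the log2 fold change of -0.94 (SE 0.431, edgeR adjusted p = 0.148) did not pass either. The parent genes Rpt3 and Rpn13 had 108 ± 26.2 and 71.8 ± 16.8 CPM in pros-depleted EEs and 128 ± 5.84 and 74.3 ± 10.7 CPM in control EEs (SD, n = 3 each), so the copies were a small addition to them.

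Among the paralogs under the filter, no sample exceeded 16 counts. That maximum was in Prosbeta2R2, a copy of the trypsin-like subunit gene, with 10, 8 and 16 counts in pros-depleted EEs, against 2, 4 and 3 counts in control EEs. Prosbeta5R2 had 13, 0 and 3 counts in pros-depleted EEs, against 2, 2 and 0 counts in control EEs, so a single pros-depleted sample held most of its reads. Rpt6R had 3, 6 and 4 counts in pros-depleted EEs, against 4, 7 and 13 counts in control EEs. The remaining 6 (Prosalpha4T1, Prosalpha3T, Prosbeta2R1, Rpt4R, Prosbeta5R1 and Prosbeta4R2) had between 0 and 4 counts in every sample. These counts are too few for a comparison.

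The proteasome works with assembly factors, shuttles, ubiquitin itself and regulators of its genes. Of 24 genes listed by role, which also take in the lid subunit gene Sem1, 24 were found and tested. In edgeR 0 of them were called, beside 12.7% of all genes. At an unadjusted p under 0.05, edgeR gave 6 of the 24, beside 38.7% of all genes, and DESeq2 gave 8, beside 38.5%. With the same thresholds DESeq2 called 2 of the 24 lower and 0 higher, where it called 1267 of 10374 genes lower and 976 higher. In edgeR the median log2 fold change of the 24 was -0.24, beside 0.02 over all genes, and 16 of 24 lay below 0, beside 48.6% of all genes. How this median and count move with scaling or with a sample left out is not given here. Every pros-depleted sample was above every control sample for 3 of the 24 genes (Ubqn, RpS27A and cnc), and below for 8, or 12.5% and 33.3%, beside 20.4% and 22.5% of all genes.

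The genes nearest to the threshold, chosen after their values were seen, were ntc, Ubi-p63E and cnc. The gene ntc encodes the F-box protein Nutcracker, a partner of the proteasome regulator PI31 in developing fly sperm. It had 1.44, 1.76 and 1.08 CPM in pros-depleted EEs, against 2.44, 4.07 and 3.25 CPM in control EEs, with no overlap. Its log2 fold change was -1.19 (SE 0.328, edgeR adjusted p = 0.0320, DESeq2 adjusted p = 0.00971), and 639 bp of its exons overlap CG32264 on the same strand, which leaves the level uncertain. Ubi-p63E, a polyubiquitin gene, had 1113, 1072 and 891 CPM in pros-depleted EEs, against 1482, 1567 and 1627 CPM in control EEs. All pros-depleted samples lay below all control samples, with a log2 fold change of -0.60 (SE 0.168, edgeR adjusted p = 0.0323, DESeq2 adjusted p = 0.00678). Ubi-p5E, the other polyubiquitin gene, had a log2 fold change of -0.46 (SE 0.204, edgeR adjusted p = 0.136). The coding repeats of the pair are near-identical, so the division of reads between them is uncertain. The genes that encode ubiquitin fused to a ribosomal protein had values above 0, at 0.46 for RpS27A (SE 0.155, edgeR adjusted p = 0.0594) and 0.18 for RpL40 (SE 0.201, edgeR adjusted p = 0.543), as did Uba1, the ubiquitin-activating enzyme gene, at 0.34 (SE 0.237, edgeR adjusted p = 0.321). RpS27A had 3132, 3173 and 3171 CPM in pros-depleted EEs, against 2285, 2448 and 2137 CPM in control EEs, without overlap.

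The transcription factor gene cnc, whose product switches on proteasome genes in flies when the protease is impaired, lay on the other side. It had 429, 450 and 342 CPM in pros-depleted EEs, against 297, 251 and 277 CPM in control EEs, without overlap. The log2 fold change was 0.57 (SE 0.179, edgeR adjusted p = 0.0495). Its partner maf-S had 118, 60.4 and 83.8 CPM in pros-depleted EEs, against 126, 131 and 129 CPM in control EEs, a log2 fold change of -0.56 (SE 0.245, edgeR adjusted p = 0.133), and Keap1, which restrains Cnc, had a log2 fold change of -0.33 (SE 0.238, edgeR adjusted p = 0.345). The genes sip3 and Pngl were listed in the same role. For sip3 the levels were 60.4, 57.3 and 61.4 CPM in pros-depleted EEs, against 81.9, 84.3 and 79.0 CPM in control EEs, without overlap. Its log2 fold change was -0.45 (SE 0.149, edgeR adjusted p = 0.0568), and that of Pngl was -0.12 (SE 0.186, edgeR adjusted p = 0.677). The isoforms of cnc were not told apart in these gene counts.

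Sem1, known as Rpn15, is a lid subunit that the symbol rule does not take. It had 57.1, 40.8 and 61.3 CPM in pros-depleted EEs, against 85.7, 62.4 and 69.1 CPM in control EEs. All pros-depleted samples lay just below all control samples, and the log2 fold change was -0.45 (SE 0.214, edgeR adjusted p = 0.163). The assembly chaperone gene Pomp and the activator gene REG had log2 fold changes of -0.24 and 0.10. The genes of the unfoldase TER94 and its cofactors Ufd1-like, Npl4 and p47 lay between -0.49 and -0.10. The shuttle factor genes Rad23, Ubqn and rngo had values of -0.01, 0.34 and 0.17.

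**Figure D5:**
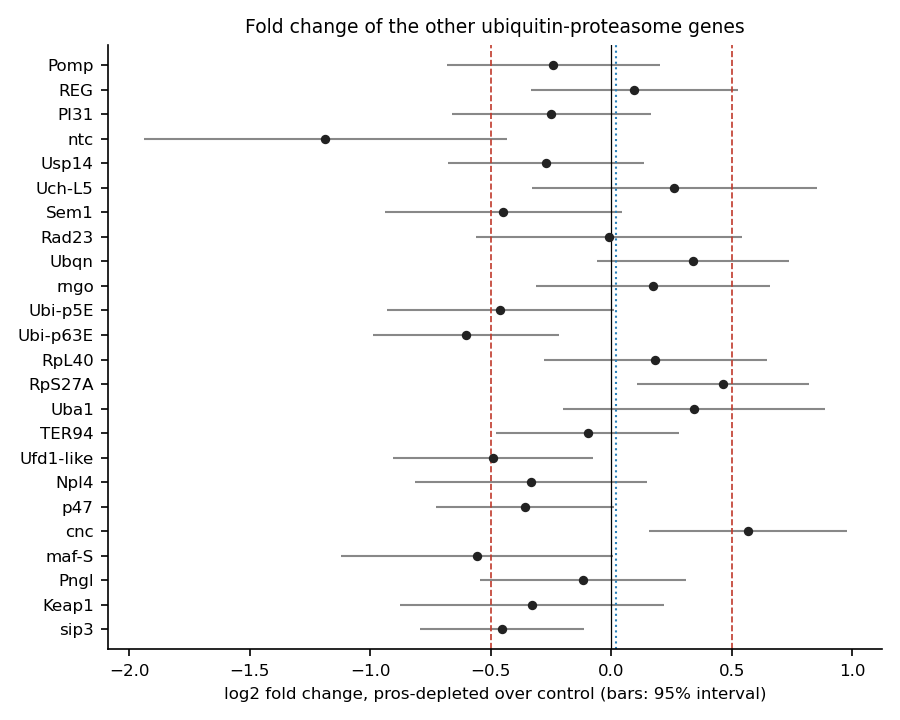
The log2 fold change (pros-depleted over control EEs) of each of the 24 other ubiquitin-proteasome genes is a point with its 95% interval from edgeR, grouped by role. The lid subunit gene Sem1 stands with the assembly and proteasome regulators. Dashed lines mark 0.5 on either side and the dotted line the all-gene median of 0.02, with ntc lowest at -1.19 and cnc highest at 0.57.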

How the data were processed

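Single-end 50 bp RNA-seq of sorted, RNA-amplified EEs was used (3 pros-depleted and 3 control samples). The authors mapped reads to BDGP6 and deposited raw counts per gene made with featureCounts 1.6.3, together with each gene's exonic length in bp. The aligner, strand setting and treatment of reads with several positions are not given in the sources used here. Samples were grouped by their labels. The members and the lists of pathway and marker genes were chosen with earlier results of these data known.

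The test was edgeR 4.0.16 in R 4.3.3, in its quasi-likelihood form after TMM scaling, on the 10374 of 17558 genes that reached 10 counts in 3 or more samples, and p was adjusted by Benjamini-Hochberg over all of them. The thresholds (adjusted p under 0.01, absolute log2 fold change over 0.5) are those of the study's methods for DESeq2. The SE is the size of the log2 fold change over the root of its F statistic, and 95% intervals use the t distribution with the fit's total degrees of freedom. Fold changes are pros-depleted over control. Coordinates are those of the table, and the start and end of 47 of 47 members matched the Ensembl annotation of BDGP6. Given per sample were, by rule, the 20 canonical subunits with the largest absolute log2 fold change, the highest and lowest of each role per kb in control EEs, and variants with at least 10 counts in 3 samples. Alternatives were DESeq2 1.42.0, other scaling and filters, other thresholds, a replicate block, and leaving out each sample. Python 3.11.15, pandas 2.3.3, scipy 1.17.1 and matplotlib 3.10.9 made the tables and figures. Promoter motifs and protein sequences were not analysed here.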

Additional observations from a re-analysis of the deposited data

How the results depend on the processing

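No member was called under any alternative (DESeq2, RLE, upper-quartile or unscaled library sizes, no filter, a mean of at least 50 counts, adjusted p under 0.05, a log2 fold change over 1, the replicate block, and each sample left out). The median log2 fold change of the canonical subunits stayed below 0 in all of them, between -0.28 and -0.09 with a sample left out, when 24 to 32 of the 32 lay below 0. Over all genes, these fits called from 188 to 976 genes higher and from 413 to 1267 lower at the main thresholds. For the other thresholds the calls over all genes are not given here. Among the other ubiquitin-proteasome genes, 2 were called lower with DESeq2 (ntc, -1.18, and Ubi-p63E, -0.59), and at an adjusted p under 0.05 edgeR called 2 lower and 1 higher. The share of all genes called at this looser threshold is not given here, so that count is not a result about these genes. Values near 0 changed sign, in more genes than those named next. Of the 32 canonical subunits, 29 lay below 0 in the main fit, 26 with upper-quartile scaling and 21 with unscaled library sizes. Prosbeta1 was 0.0029 without pros-depleted replicate 1 (-0.28 to 0.0029 with each sample left out), rngo ran from -0.033 (without pros-depleted replicate 2) to 0.28 with a sample left out, and TER94 was 0.014 with unscaled library sizes. Rad23 (-0.01) was 0.0021 with DESeq2, 0.0022 with RLE, 0.0045 with a mean of at least 50 counts, 0.044 with upper-quartile scaling and 0.085 with unscaled library sizes, and ran from -0.28 to 0.15 with a sample left out. The causes were not tested. The difference in the share of counts ran from -0.051 to 0.011 percentage points with a sample left out.

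With the replicate number as a block, 0 members were called, the canonical median was -0.17 and the lowest adjusted p among canonical subunits in edgeR was 0.0768, while calls over all genes were 346 higher and 643 lower, against 491 and 826 without the block. The deviations of samples with the same number correlated at -0.16, 0.27 and 0.11. Pros-depleted samples 2 and 3 correlated best with the control sample of their own number, and pros-depleted sample 1 did not. With 3 samples a group, these values cannot decide whether a number ties samples. Over all genes DESeq2 called 976 higher and 1267 lower, and without control replicate 2 edgeR called 188 and 413. The 13 variant paralogs not tested had 16 counts or fewer in every sample, too few for a comparison at this depth.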
